A study of Rattus norvegicus with 6 samples.

Results

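This account covers 37 genes of cholesterol and fatty acid synthesis, picked by symbol from the 22608 genes of the deposited table. A sterol arm of 21 genes holds the enzymes from acetoacetyl-CoA to cholesterol with Srebf2, Insig1 and Stard4, and a fatty acid arm of 16 genes holds the enzymes that make, elongate, desaturate and activate fatty acids with Srebf1 and Thrsp. Both groups were primary astrocytes from brain of the rat (Rattus norvegicus), cultured without β-hydroxybutyrate (BHB, a ketone body; control, 3 libraries) or with it (BHB, 3 libraries, 2 mM per the column names). The sources used here do not give strain, age, sex, culture conditions or length of treatment. Poly(A) RNA was sequenced, and each gene's level is given in FPKM, fragments normalised to transcript length and library size, a scale on which levels of different genes can be compared. No label ties the libraries to separate cultures or animals, so the p-values describe the spread between these libraries, which may be technical.

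Cholesterol and fatty acids are both built from cytosolic acetyl-CoA. Sterol regulatory element binding proteins (SREBPs) are transcription factors held in the endoplasmic reticulum while sterols are plentiful and released when sterols run low; SREBP-2, from Srebf2, mainly acts on sterol genes, and SREBP-1, from Srebf1, mainly on fatty acid genes. Astrocytes are the main site of cholesterol synthesis in the adult brain and pass it to neurons in lipoproteins. BHB can be split to acetyl-CoA in mitochondria, and its product acetoacetate can also be activated in the cytosol and enter lipid synthesis directly.

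What many of the members share in sequence is a CCAAT box, the site of NF-Y, a factor known to act with SREBPs on sterol genes. The 250 bases before the annotated start were read from RefSeq promoter sequences (GRCr8, a later build than that of the deposited table), in which 30 of the 37 genes were matched. Pmvk, Fdft1, Sqle, Stard4, Acaca, Fasn and Elovl6 were not matched. The letters CCAAT, on either strand, were present in 25 of the 30 genes (83.3%), in 14 of 17 of the sterol arm and 11 of 13 of the fatty acid arm. They were present in 34.0% of all 33469 promoters and in 35.7% of the 10123 promoters of genes tested here. These shares count single promoter entries, whereas a member gene counted if any of its entries matched, so the units differ. Shown are the most abundant matched gene of each arm (Hmgcs1 and Scd2) and another with the smallest p among matched genes of its arm (Idi1 and Acly). Capitals mark CCAAT or its reverse complement ATTGG.
Hmgcs1: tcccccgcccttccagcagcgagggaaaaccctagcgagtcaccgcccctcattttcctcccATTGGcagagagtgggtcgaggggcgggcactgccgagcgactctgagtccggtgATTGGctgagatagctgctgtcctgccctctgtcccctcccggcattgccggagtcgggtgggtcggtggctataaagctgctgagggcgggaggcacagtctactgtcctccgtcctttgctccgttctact
Idi1: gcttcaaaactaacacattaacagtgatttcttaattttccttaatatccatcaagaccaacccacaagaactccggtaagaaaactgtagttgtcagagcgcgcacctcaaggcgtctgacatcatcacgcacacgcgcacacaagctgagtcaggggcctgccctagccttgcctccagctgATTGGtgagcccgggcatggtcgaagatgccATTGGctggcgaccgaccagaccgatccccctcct
Scd2: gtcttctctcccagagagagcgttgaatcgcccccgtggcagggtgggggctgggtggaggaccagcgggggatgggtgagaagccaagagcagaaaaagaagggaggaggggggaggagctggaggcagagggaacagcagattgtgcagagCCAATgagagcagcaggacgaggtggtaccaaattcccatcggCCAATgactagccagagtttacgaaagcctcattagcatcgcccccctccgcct
Acly: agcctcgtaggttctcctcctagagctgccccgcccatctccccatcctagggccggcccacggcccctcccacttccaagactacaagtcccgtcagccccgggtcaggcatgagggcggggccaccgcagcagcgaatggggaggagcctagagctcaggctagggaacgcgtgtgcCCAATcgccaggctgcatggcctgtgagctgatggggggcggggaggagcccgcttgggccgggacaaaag

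Counted back from the start, with the last printed base at -1, the boxes begin at -188 and -133 in Hmgcs1 (chr2:53382054-53382303, plus strand), at -66 and -35 in Idi1 (chr17:66547525-66547774, minus strand), at -97 and -54 in Scd2 (chr1:253118127-253118376, plus strand) and at -71 in Acly (chr10:85963632-85963881, minus strand). All 4 thus hold at least 1 CCAAT box, in the reverse orientation in both sterol genes shown. The GC box GGGCGG, bound by Sp1 and its relatives, was present on either strand in 22 of the 30 genes (73.3%). It was in 30.5% of all promoters and 59.0% of those of genes tested, again counted by entry and not by gene. By arm, the GC box was present in 15 of 17 sterol genes and 7 of 13 fatty acid genes. The letters TCACNCCAC, a form of the sterol regulatory element, were in none of the 30 windows and in 0.974% of all promoters. None of the motifs contains another. A match describes the sequence and is not shown to be a bound site.

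Summed FPKM per library ran from 354565 to 367448. The values of 1 read inferred from genes under 0.1 FPKM lay between 0.851 and 1.01 times that of control 1. Only ratios inside a preset window around equal depth were searched, so a large difference in depth could not have been seen. Absolute depth is unknown. Pairwise correlations over genes tested were 0.990 to 0.993. The astrocyte identity was carried by Fabp7 (2319 FPKM in controls), Gfap (1438 FPKM), Aqp4 and Aldh1l1. The 10 astrocyte markers checked summed to 4711 to 4953 FPKM in controls and 5119 to 5135 FPKM with BHB. Of these 1 passed the test, the glutamate transporter gene Slc1a3, and Glul and Gfap had the next smallest p. Slc1a3 averaged 203 FPKM in controls and 455 FPKM with BHB, so the higher sums do not show a rise shared by the markers. Their log2 fold changes were above 0 in 6 and below 0 in 4. Fibroblast and mural markers were high, at 4482 to 4857 FPKM in controls and 4635 to 5020 FPKM with BHB, with Tagln the most abundant and Acta2, Tagln and Pdgfrb of smallest p, while Dcn was listed at 0 in all libraries except control 3. Oligodendrocyte lineage markers, whose cells also make much cholesterol, summed to 92.5 to 97.9 and 95.1 to 99.1 FPKM. Most of this was Cnp and Olig1, at 48.7 and 25.3 FPKM averaged over the 6 libraries. Mbp, Pdgfra, Sox10 and Mag averaged 1.29, 1.37, 0.265 and 0.116 FPKM, and the last 2 were too low to be tested. Olig1 and these 4 were named after their values were seen. Cnp and Olig2 had log2 fold changes of 0.10 and 0.15, and of 7 markers tested 5 lay above 0 and 2 below. Microglia markers summed to 38.0 to 39.5 and 37.0 to 39.9 FPKM, with C1qa highest. Cx3cr1, Tmem119 and Aif1 had log2 fold changes of -0.27, 0.23 and 0.08. Neuron markers summed to 88.7 to 92.7 and 88.0 to 90.0 FPKM, near the oligodendrocyte sums, with Stmn2 highest at 54.4 FPKM on average. Syp, Syt1 and Snap25 had log2 fold changes of -0.23, 0.12 and 0.12. The microglia and neuron sums were far below those of the astrocyte markers. None of these passed in limma apart from Slc1a3, and the part of other cell types in the values below was not tested. In such bulk samples fewer cells of a type and less RNA per cell cannot be told apart.

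The astrocytes expressed nearly the whole of both pathways. Averaged over the 6 libraries, 6 of the 37 genes stood at 100 FPKM or more, 25 between 10 and 100, 5 between 1 and 10, and Acacb alone below 1. The stearoyl-CoA desaturase gene Scd2 was by far the highest at 506 FPKM, the 50th most abundant of all genes. It was followed by Hmgcs1 (191 FPKM), Cyp51 (126 FPKM), Fads1 (121 FPKM), Fdps (111 FPKM) and Msmo1 (100.4 FPKM). At the low end were Ebp (4.55 FPKM), Hsd17b7 (3.48 FPKM) and Stard4 (3.18 FPKM). These levels differed little between libraries. The median coefficient of variation over the 6 libraries was 4.40% in the 17 sterol genes and 4.76% in the 14 fatty acid genes with at least 10 FPKM, against 5.37% over the 6401 genes of that level.

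**Figure D1:**
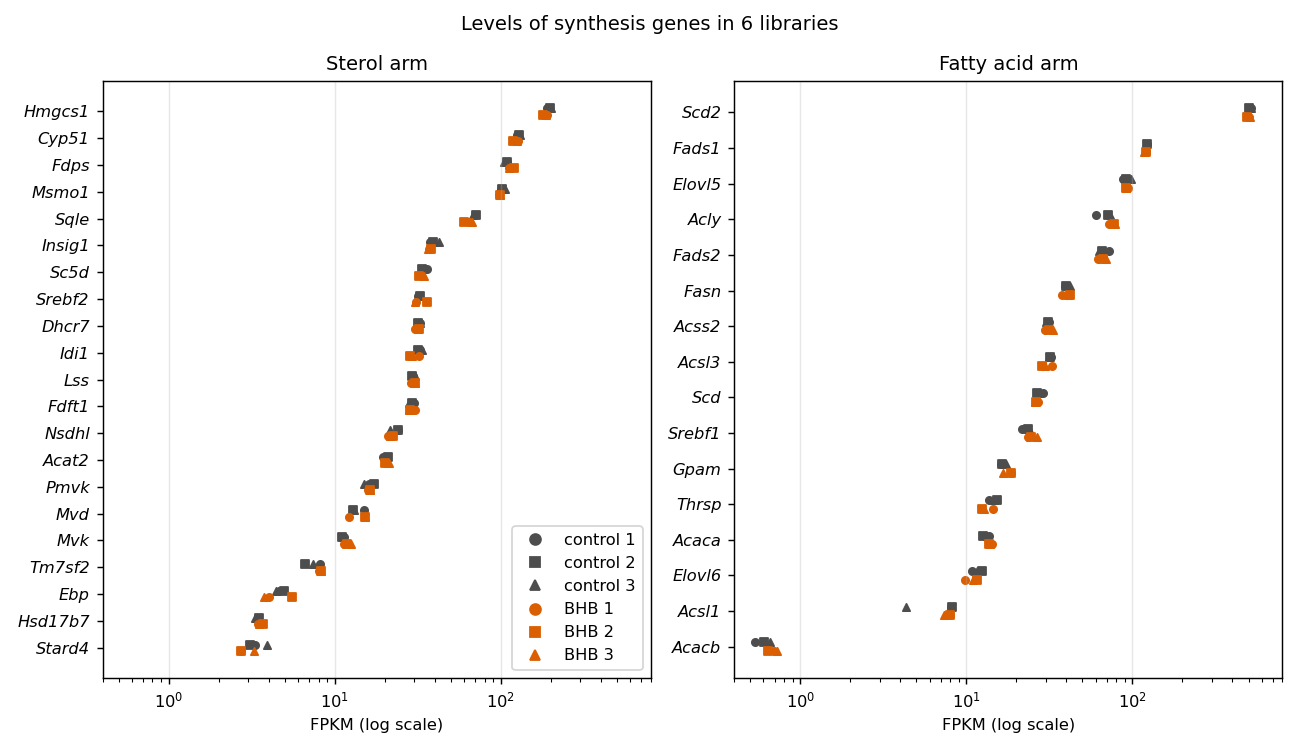
FPKM (log axis) of each of the 37 genes in each of the 6 libraries, ordered by mean level within the sterol arm (left) and the fatty acid arm (right); grey symbols are controls and orange symbols BHB, drawn slightly apart. Levels span from 0.642 FPKM for Acacb to 506 FPKM for Scd2, and the spread between genes far exceeds that between groups; Acsl1 in control 3, at 4.34 FPKM, stands apart from its other libraries.

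None of the 36 genes tested passed in either arm. Genes were tested with limma on log2(FPKM + 1), and a gene passed at a Benjamini-Hochberg adjusted p under 0.05 over all 12373 genes tested, of which 7 did (0.0566%). The lowest adjusted p among the synthesis genes was 0.881. At an unadjusted p under 0.05 there was 1 of 36, the squalene epoxidase gene Sqle (2.78%), where 5.59% of all genes tested met that level. Acacb was not tested, since it did not reach 1 FPKM in at least 3 libraries. Among the 36 tested genes, ratios of mean FPKM, BHB over control, ran from 0.841 (Stard4) to 1.13 (Acsl1).

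Differences in both arms were small and of mixed sign. In the sterol arm 8 of 21 genes had a log2 fold change (BHB over control) above 0 and 13 below, with a median of -0.042. In the fatty acid arm 6 of 15 tested lay above 0 and 9 below, with a median of -0.0038. Over all genes tested the median was 0.0029 and 48.5% lay below 0. The size of the differences, regardless of sign, had a median of 0.058 in the sterol arm and 0.064 in the fatty acid arm, against 0.056 over all genes tested. The groups did not overlap in 6 of the 36 (16.7%), where 10.9% of all genes tested showed this. The BHB libraries were all above the controls in Fdps, Mvk and Acaca (6.43% of all genes tested) and all below in Sqle, Msmo1 and Fads1 (4.45%).

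The intervals show how large a change the data leave room for. The 95% interval of the log2 fold change lay within ±0.25 for 27 of the 36 genes and within ±0.5 for 35 of them, against 58.3% and 94.6% of all genes tested. The exception at ±0.5 was Acsl1, whose interval reached 0.64. In data simulated with this spread, 84.4% of changes of 0.5 on the log2 scale and 19.6% of changes of 0.25 were recovered, so changes near the smaller size could be missed. The simulated sets held many more changed genes than the 7 that passed here, also of sizes 1 and 1.5. That eases the adjusted threshold, so these shares are likely too high for the real data.

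**Figure D2:**
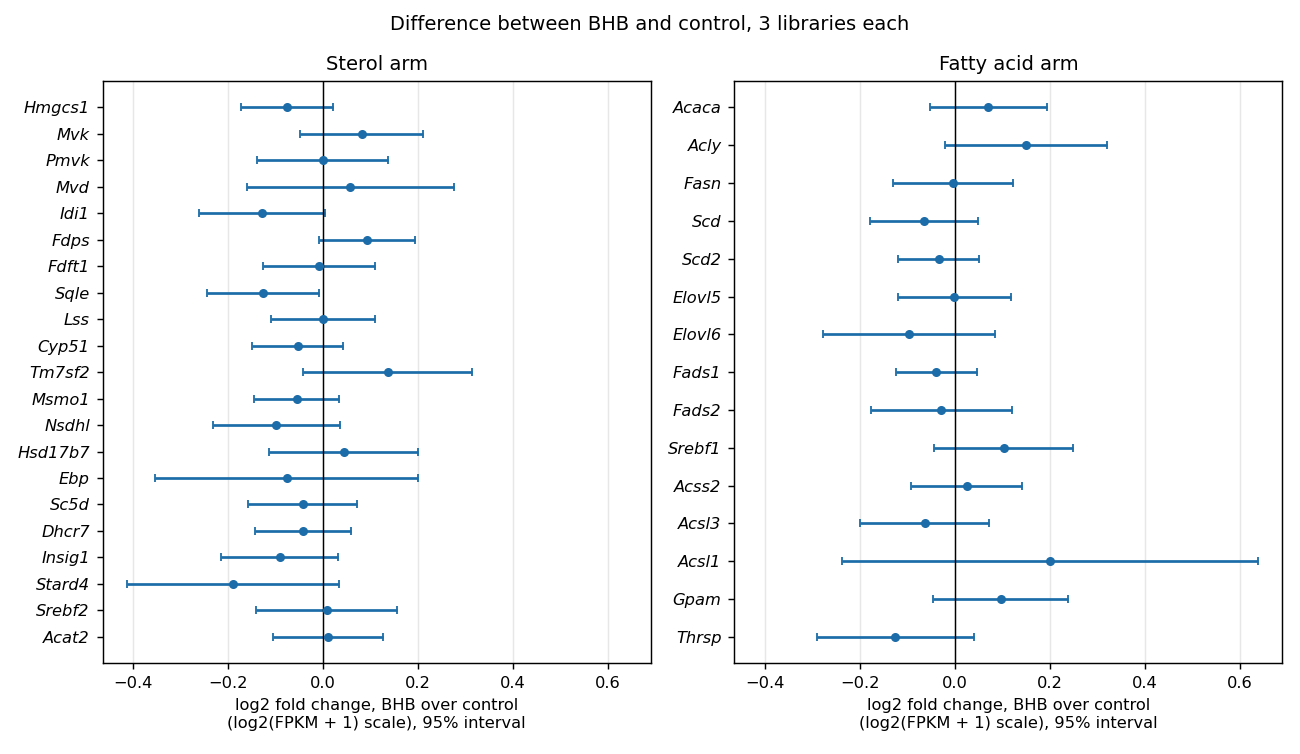
Log2 fold change of BHB over control on the log2(FPKM + 1) scale (points) with its 95% interval from limma (bars) for the 21 sterol and 15 fatty acid genes tested, 3 libraries a group. The interval of Sqle, -0.24 to -0.0079, is the only one that leaves out 0, and that of Acsl1 is the widest.

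The sterol pathway starts with the condensation of acetyl-CoA by Acat2, the cytosolic thiolase, and Hmgcs1, the cytosolic HMG-CoA synthase. Hmgcs1 stood at 189, 197 and 201 FPKM in controls 1 to 3 and at 191, 181 and 186 FPKM in BHB 1 to 3. The lowest 2 values were those of BHB 2 and BHB 3, while BHB 1 lay above control 1, so the groups overlapped. Its log2 fold change was -0.075 (SE 0.042, 95% interval -0.17 to 0.022). Acat2 averaged 20.3 ± 0.668 FPKM (control) and 20.5 ± 0.569 FPKM (BHB; mean ± SD of 3 libraries here and below). The mevalonate kinases and decarboxylase that follow, Mvk, Pmvk and Mvd, lay at 11.6, 16.1 and 13.9 FPKM on average. Mvk, shown because its groups did not overlap, stood at 11.3, 11.1 and 11.2 FPKM in controls and 11.4, 11.9 and 12.5 FPKM with BHB. The margin between control 1 and BHB 1 was small, and its log2 fold change was 0.081 (95% interval -0.049 to 0.21). Pmvk and Mvd had log2 fold changes of -0.00041 and 0.058, with overlapping groups.

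Next come the isoprenoid steps, where neighbouring enzymes differed in sign. Idi1, the isomerase of isopentenyl diphosphate, stood at 32.8, 31.7 and 33.5 FPKM in controls and 32.1, 28.3 and 29.2 FPKM with BHB. BHB 2 and BHB 3 lay below all controls and BHB 1 lay among them, and the log2 fold change was -0.13 (SE 0.058, 95% interval -0.26 to 0.0037). Fdps, which joins these units to farnesyl diphosphate, stood at 108, 109 and 105 FPKM in controls and 112, 119.7 and 112 FPKM with BHB. All 3 BHB libraries lay above all controls, and the log2 fold change was 0.093 (SE 0.044, 95% interval -0.0078 to 0.19). RefSeq lists 5 Fdps pseudogenes and 1 of Cyp51 in the rat, and the sources used here do not say how reads shared with such copies were counted.

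Fdft1, the squalene synthase at the branch to sterols, was level between groups within its spread, averaging 29.1 ± 0.853 FPKM (control) and 28.9 ± 1.30 FPKM (BHB). Sqle, the squalene epoxidase and a rate-limiting oxygen-using step, stood at 69.7, 70.7 and 68.4 FPKM in controls and 64.1, 59.8 and 67.4 FPKM with BHB. All BHB libraries lay below all controls, BHB 3 narrowly and BHB 2 by most. The log2 fold change was -0.13 (SE 0.052, 95% interval -0.24 to -0.0079), with an unadjusted p of 0.0392 and an adjusted p of 0.881 in limma. The log2 fold change of Sqle was -0.082 without BHB 2. The opposite signs show in the ratio of Fdps to Sqle, a comparison picked after the values were seen, so it has no test. It was 1.53 to 1.56 in the controls and 1.75, 2.00 and 1.66 in BHB 1 to 3. The ratio of Fdps to Idi1, picked in the same way, was 3.12 to 3.46 in controls and 3.50 to 4.24 with BHB.

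None of the ring-forming and ring-trimming enzymes passed either, and the most variable of the arm, Ebp, was among them (coefficient of variation 14.3%). Cyp51, the lanosterol demethylase, stood at 126, 129 and 130.2 FPKM in controls and 126, 119 and 126 FPKM with BHB. Only BHB 2 lay below all controls, as the other BHB libraries were slightly above control 1, and the log2 fold change was -0.054 (95% interval -0.15 to 0.042). Msmo1, the methylsterol oxidase of a later step, stood at 100.3, 101 and 105 FPKM in controls and 97.9, 98.7 and 98.7 FPKM with BHB. Its groups did not overlap, and its log2 fold change was -0.055 (95% interval -0.15 to 0.034). Tm7sf2, a sterol reductase, stood at 8.16, 6.60 and 7.43 FPKM in controls and 8.07, 8.26 and 8.27 FPKM with BHB. The BHB libraries were tight and the controls scattered, with control 1 above BHB 1, and the log2 fold change was 0.14 (SE 0.078, 95% interval -0.042 to 0.31). It was 0.066 without control 2. The sterol dehydrogenase gene Nsdhl had a log2 fold change of -0.098 (23.2 and 21.6 FPKM). Lss, Hsd17b7, Ebp, Sc5d and Dhcr7, for lanosterol synthase, a ketoreductase, an isomerase, a desaturase and the reductase that ends one branch of the pathway, had log2 fold changes of 0.00029, 0.043, -0.077, -0.043 and -0.042. The sign of Lss turned under both alternative scalings.

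Among the regulators, Srebf2 stood at 31.9, 32.7 and 31.9 FPKM in controls and 30.8, 35.7 and 30.6 FPKM with BHB. BHB 2 was the highest library and the other 2 BHB libraries were the lowest, and the log2 fold change was 0.0074 (SE 0.065, 95% interval -0.14 to 0.16). Insig1, which holds the SREBP complex in the endoplasmic reticulum and is itself an SREBP target, stood at 37.8, 39.1 and 42.2 FPKM in controls and 37.1, 38.2 and 36.3 FPKM with BHB. BHB 2 lay above control 1, so the groups overlapped, and the log2 fold change was -0.091 (SE 0.054, 95% interval -0.21 to 0.032). Stard4, a carrier of sterols between membranes, stood at 3.33, 3.11 and 3.91 FPKM in controls and 2.71, 2.71 and 3.28 FPKM with BHB. BHB 1 and BHB 2 lay below all controls and BHB 3 among them. The log2 fold change of Stard4 was -0.19 (SE 0.097, 95% interval -0.41 to 0.034), the lowest in either arm, and -0.12 without control 3.

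Added over the 21 sterol genes, FPKM came to 929, 939.5 and 943 in controls 1 to 3 and 912, 909 and 917 in BHB 1 to 3. Every BHB library lay below every control, also after median ratio scaling (at most 915 against at least 930.0) and quantile normalization (at most 923 against at least 929). The means differed by -24.4 FPKM out of 937. Hmgcs1, Sqle, Cyp51 and Msmo1 contributed -10.0, -5.84, -4.68 and -3.91 FPKM to this difference and Fdps 7.27 FPKM, so the sum is weighted to the most abundant genes. The genes were chosen with earlier results known, so this sum has no test. Added over the 16 fatty acid genes, FPKM overlapped between groups, at 1075 to 1088 in controls and 1062 to 1080 with BHB.

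**Figure D3:**
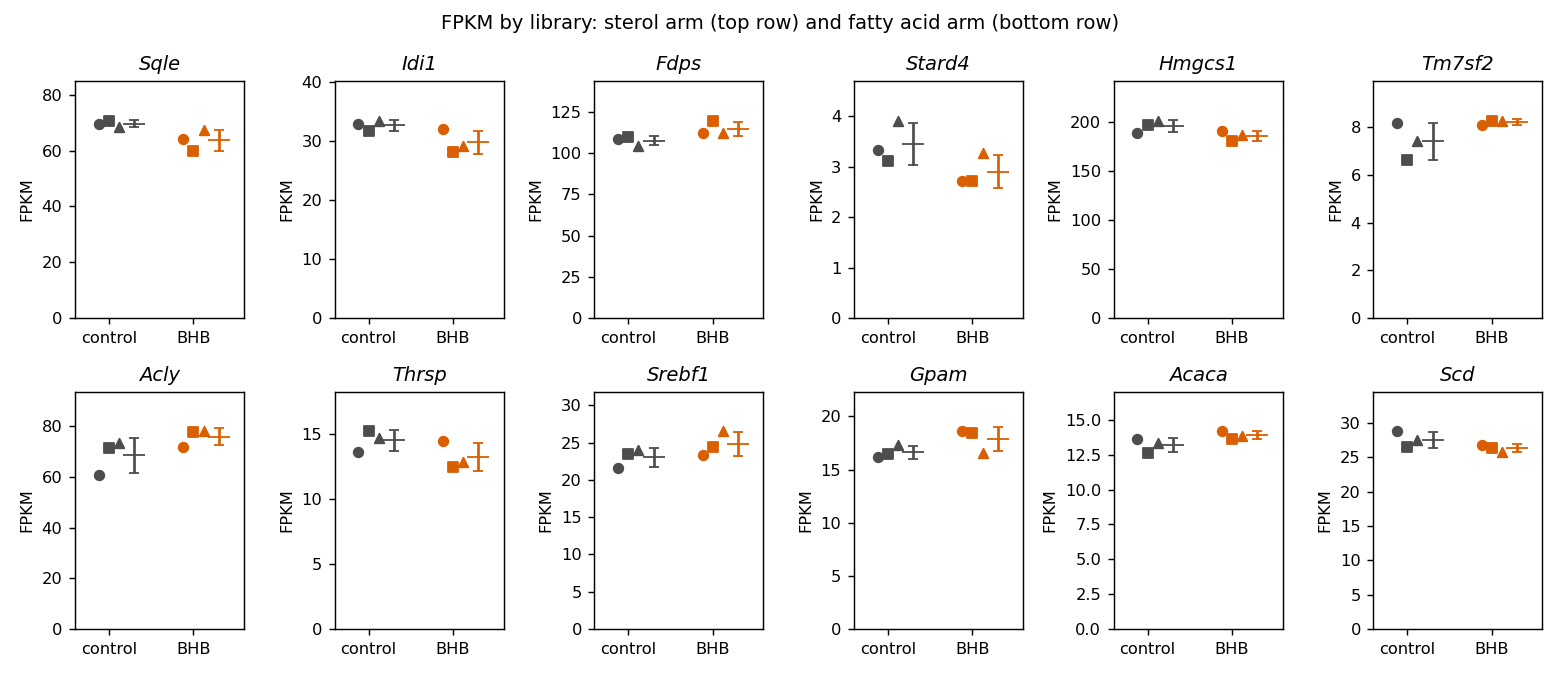
FPKM in each library for the 6 genes with the smallest p in the sterol arm (top) and in the fatty acid arm (bottom), with axes from 0. Circles, squares and triangles are libraries 1, 2 and 3 of each group, and the bars beside them are mean ± SD (n = 3). Sqle is lower and Fdps and Acaca are higher in all BHB libraries than in all controls, and the other 9 genes overlap.

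Fatty acid synthesis draws acetyl-CoA from citrate through Acly, the ATP citrate lyase, and from acetate through Acss2. Acly stood at 60.6, 71.5 and 73.4 FPKM in controls and 71.9, 77.7 and 78.1 FPKM with BHB. Control 1 was far below the other 5 libraries, and BHB 1 lay between controls 2 and 3. The log2 fold change was 0.15 (SE 0.075, 95% interval -0.021 to 0.32, limma adjusted p = 0.885), and it was 0.066 without control 1. Acss2 averaged 30.9 ± 0.598 FPKM (control) and 31.5 ± 1.54 FPKM (BHB), and its log2 fold change was 0.026.

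Acaca, the cytosolic acetyl-CoA carboxylase that commits carbon to fatty acids, stood at 13.6, 12.6 and 13.3 FPKM in controls and 14.2, 13.7 and 13.9 FPKM with BHB. The BHB libraries lay above the controls, BHB 2 by a narrow margin over control 1, and the log2 fold change was 0.071 (SE 0.054, 95% interval -0.053 to 0.19). Acacb, the mitochondrial carboxylase better known as a brake on fatty acid oxidation, was near the bottom at 0.535 to 0.661 FPKM in controls and 0.640 to 0.722 FPKM with BHB. Acaca was 19.2 to 25.5 times as abundant as Acacb across the libraries. Fasn, the fatty acid synthase, averaged 40.4 ± 1.40 FPKM (control) and 40.3 ± 2.33 FPKM (BHB), and its log2 fold change was -0.0038 (95% interval -0.13 to 0.12).

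The 6 desaturase and elongase genes of the fatty acid arm had log2 fold changes below 0, from -0.097 to -0.00090, where 48.5% of all genes tested lay below 0, and 5 or 6 of them did when a library was left out. None of the 6 reached an unadjusted p under 0.05 in limma. Other elongase genes outside the arm, Elovl1, Elovl4 and Elovl2, had log2 fold changes of 0.14, 0.11 and -0.067, the last 2 named after their values were seen. Of these, Elovl1 had an unadjusted p of 0.0274 in limma and an adjusted p of 0.881. Scd2 stood at 515, 506 and 516 FPKM in controls and 505, 489 and 507 FPKM with BHB. BHB 1 and BHB 2 lay below the controls and BHB 3 just above control 2, and the log2 fold change was -0.034 (95% interval -0.12 to 0.050). Scd, its paralog that dominates in liver and fat, stood at 28.8, 26.5 and 27.5 FPKM in controls and 26.8, 26.4 and 25.8 FPKM with BHB. The groups overlapped through BHB 1, and the log2 fold change was -0.064 (SE 0.050, 95% interval -0.18 to 0.050). Scd2 was 17.9 to 19.7 times as abundant as Scd in every library, although reads shared between these paralogs could have been split by the counting.

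Fads1 and Fads2, the desaturases of long polyunsaturated fatty acids, stood at 121 and 66.4 FPKM on average. Fads1 read 122, 123 and 121 FPKM in controls and 120.0, 120.0 and 117 FPKM with BHB. Its groups did not overlap, but the log2 fold change was only -0.039 (95% interval -0.12 to 0.046). Fads2 had a log2 fold change of -0.028. The elongase gene Elovl5, which acts on polyunsaturated chains, stood at 87.5, 91.3 and 98.6 FPKM in controls and 94.5, 91.5 and 90.9 FPKM with BHB. The BHB libraries lay within the range of the controls, and the log2 fold change was -0.00090 (95% interval -0.12 to 0.12). Elovl6, which elongates saturated chains, had a log2 fold change of -0.097 at 11.6 and 10.8 FPKM.

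Srebf1 stood at 21.6, 23.5 and 23.9 FPKM in controls and 23.4, 24.4 and 26.5 FPKM with BHB. BHB 3 was the highest and control 1 the lowest, and BHB 1 lay below 2 of the controls. The log2 fold change was 0.10 (SE 0.064, 95% interval -0.043 to 0.25). Thrsp, a lipogenic regulator also called Spot14, stood at 13.6, 15.2 and 14.7 FPKM in controls and 14.5, 12.4 and 12.8 FPKM with BHB. BHB 2 and BHB 3 lay below all controls and BHB 1 among them, and the log2 fold change was -0.12 (SE 0.072, 95% interval -0.29 to 0.040). Thus the 2 lipogenic regulators of this arm had opposite signs, within the spread between libraries.

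Gpam, the mitochondrial acyltransferase that starts glycerolipid synthesis, stood at 16.1, 16.4 and 17.3 FPKM in controls and 18.6, 18.5 and 16.5 FPKM with BHB. BHB 1 and BHB 2 lay above all controls, BHB 3 did not, and the log2 fold change was 0.097 (SE 0.062, 95% interval -0.045 to 0.24). Acsl3, an acyl-CoA synthetase of lipid droplets, had a log2 fold change of -0.063 (31.7 and 30.4 FPKM). Acsl1, another acyl-CoA synthetase, had the highest log2 fold change of either arm, 0.20, through a single library. It stood at 8.09, 8.24 and 4.34 FPKM in controls and 8.02, 8.001 and 7.38 FPKM with BHB. Without control 3 the log2 fold change of Acsl1 was -0.059. RefSeq lists 13 transcripts of Acsl1, and its deposited values carry more than 6 decimals, as do those of 19 of the 37 genes.

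The libraries differed little in the average over each arm. Relative to each gene's 6-library mean, the sterol genes averaged between -0.039 (BHB 1) and 0.021 (control 1) on the log2(FPKM + 1) scale, and the fatty acid genes between -0.024 (control 3) and 0.016 (control 2). The value of control 3 rests on Acsl1, as the median over the fatty acid genes there was 0.012 and 4 of 15 lay below their mean. Over the sterol genes the medians did not separate the groups, at -0.0081 in control 3 and 0.0071 in BHB 3. BHB 2 was the lowest library in 6 and the highest in 4 of the 21 sterol genes. BHB 1 lay below the 6-library mean in 16 of the 21 (76.2%), against 46.6% of all genes tested. Control 3 was the highest library in 8 of the 21 (38.1%), where it was the highest in 17.3% of all genes tested. In the fatty acid arm no library was the highest in more than 4 of 15 genes or the lowest in more than 4.

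**Figure D4:**
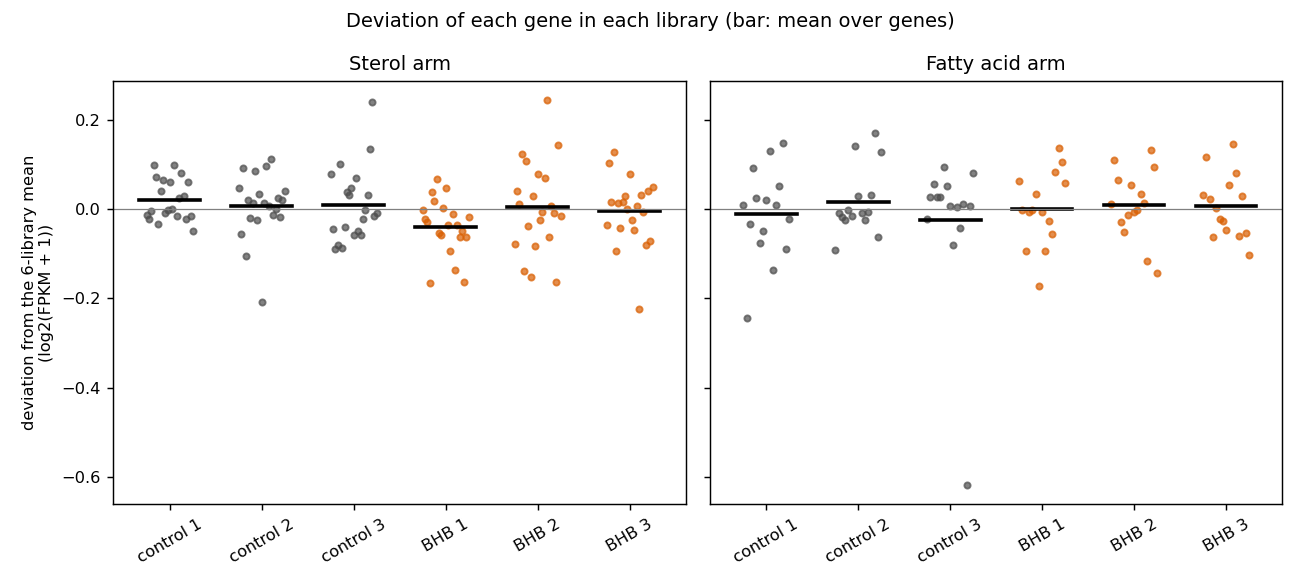
Deviation of each gene's log2(FPKM + 1) from its mean over the 6 libraries, by library, for 21 sterol genes (left) and 15 fatty acid genes (right); black bars are means over genes. The means lie between -0.039 and 0.021, and the single point far below the rest in control 3 is Acsl1.

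Genes around the pathways did not pass either. Of 18 genes for sterol sensing, export and turnover, 15 were tested, 6 above and 9 below 0, with a median log2 fold change of -0.0070, and none reached an unadjusted p under 0.05 in limma. The smallest p belonged to Scap, the sterol-sensing escort of SREBPs, at 16.5, 17.0 and 15.9 FPKM in controls and 17.5, 17.6 and 17.7 FPKM with BHB (log2 fold change 0.092). Erg28, a scaffold of the demethylation enzymes found under an older symbol, and Mbtps2, a protease that releases SREBPs, had log2 fold changes of -0.14 and -0.10. Npc2, a lysosomal sterol carrier, was the most abundant and averaged 135 ± 3.67 FPKM (control) and 139 ± 8.80 FPKM (BHB).

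Of 22 further genes of fatty acid supply, elongation and esterification, 20 were tested, 12 above and 8 below 0, with a median of 0.037. None passed in limma, and an unadjusted p under 0.05 was seen in 2. Acsl6, an acyl-CoA synthetase enriched in brain, stood at 8.75, 9.24 and 8.51 FPKM in controls and 10.7, 11.0 and 9.90 FPKM with BHB. Its BHB libraries lay above all controls, and the log2 fold change was 0.23 (SE 0.064, 95% interval 0.082 to 0.38, limma unadjusted p = 0.00681, adjusted p = 0.881). Elovl1, an elongase of very long saturated chains, stood at 22.7, 20.5 and 21.3 FPKM in controls and 23.1, 24.4 and 24.1 FPKM with BHB, a log2 fold change of 0.14. Acsl5 had a log2 fold change of 0.089, and Tecr, the reductase that ends each elongation cycle, was the most abundant at 163 and 158 FPKM. Aacs, which activates acetoacetate in the cytosol for lipid synthesis, was named after its values were seen. It stood at 15.6, 15.2 and 15.1 FPKM in controls and 15.8, 15.5 and 15.6 FPKM with BHB, and its log2 fold change was 0.029 (95% interval -0.082 to 0.14).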

How the data were processed

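FPKM values of 22608 gene symbols in 3 control and 3 BHB libraries were deposited by the authors. Oligo-dT beads and a TruSeq kit were used, per the labels' protocols. The submitters' processing notes name bcl2fastq 2.0, HISAT2, StringTie, DESeq2 and build rn6, without roles or settings; annotation and strand setting are not given in the sources read here. FPKM values cannot be tested as counts. They were transformed as log2(FPKM + 1), which understates changes of low genes, with no scaling added. Genes reaching 1 FPKM in 3 or more of 6 libraries were fitted with limma 3.58.1 in R 4.3.3 (eBayes with an intensity trend), two-sided, with Benjamini-Hochberg adjustment over 12373 genes and a threshold of 0.05. The fit was tested on 5 simulated data sets. The members and lists were chosen with earlier results of these data known. Values in every library are given by rule for the 6 genes with the smallest p and the 3 most abundant of each arm and for Srebf1, Srebf2 and Insig1; of other lists the 3 genes with the smallest p and the most abundant are named, of which 1 is not reported here, and Mvk, Msmo1, Acsl1, Acacb and Aacs were chosen after their values were seen. A comparison of paralog proteins planned at the start was not run. Alternatives were a pseudocount of 0.1, no filter, no trend, median ratio scaling, quantile normalization, a replicate block and leaving out each library.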

Additional observations from a re-analysis of the deposited data

How the results depend on the processing

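No synthesis gene passed in limma under any alternative run, where an unadjusted p under 0.05 was met by 0 to 2 genes an arm. The adjusted p was at least 0.685, a value shared by several genes without BHB 1. Among them Idi1 had the smallest unadjusted p in limma, 0.00948. Over all genes tested, 7 passed, 4 without the eBayes trend and 2 with the replicate block; for both the cause was not tested, and leaving out a library gave 5 to 10. The replicate numbers gave no sign of pairing (deviations of libraries with the same number correlated at -0.090, 0.16 and -0.15), and control 2 alone correlated best with the BHB library of its own number. With a library left out, the median log2 fold change ranged from -0.040 to -0.014 in the sterol arm (-0.042 with all) and from -0.029 to 0.012 in the fatty acid arm (-0.0038 with all). The sign turned in 11 genes, with ranges of -0.045 to 0.046 for Pmvk, -0.044 to 0.011 for Fdft1, -0.014 to 0.029 for Lss, -0.22 to 0.016 for Ebp, -0.063 to 0.045 for Srebf2, -0.011 to 0.034 for Acat2, -0.037 to 0.042 for Fasn, -0.040 to 0.046 for Elovl5, -0.075 to 0.030 for Fads2, -0.0086 to 0.060 for Acss2 and -0.059 (without control 3) to 0.34 for Acsl1. Lss turned to -0.0044 with median ratio scaling and -0.0034 with quantile normalization. Of 216 values of single genes under the other alternatives 214 kept direction and call, as did 194 of 216 when a library was left out. Depth is unknown, which limits what can be said of genes of a few FPKM.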
